A study of Mus musculus with 17 samples.

Results

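The regions described here are peaks of H3K27ac in mouse hypothalamus whose summits lie inside long noncoding RNA (lncRNA) genes and away from protein-coding genes. A peak was taken when its summit fell in the RefSeq span of a lncRNA gene and more than 1 kb outside every protein-coding span. The rule took 11604 of the 183678 peaks in the deposited list, or 6.32% (95% Wilson interval 6.21% to 6.43%). The other peaks comprised 125546 with a summit in a protein-coding span, 5360 within 1 kb of such a span, 40467 intergenic peaks with a summit in no annotated gene, and 701 in other kinds of noncoding gene. The study holds 17 samples: 3 bulk CUT&Tag samples for H3K27ac, described as biological replicates, and 7 DNA with 7 RNA sub-libraries from Paired-Tag, which reads histone marks and RNA in the same nuclei, with antibodies to H3K27ac and H3K27me3. Data from Paired-Tag were not analysed here. The bulk peaks came as a single list for the 3 samples, so every value below is a value of that list, with no spread between animals and no test between conditions. All groups carry the same label of tissue, and the sources used here give no strain, sex, age or treatment.

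H3K27ac, an acetyl group on lysine 27 of histone H3, is found on active promoters and enhancers, and CUT&Tag maps it by tethering a transposase to an antibody bound to the mark. Long noncoding RNA genes are transcribed like protein-coding genes, but their RNAs have no long reading frame. Some of their RNAs act in the nucleus, as Xist does when it silences an X chromosome, some serve as precursors of microRNAs or of the small nucleolar RNAs (snoRNAs) that guide the modification of ribosomal RNA, and for most no function is known. Many lie beside genes of developmental transcription factors, and enhancers of such genes can lie inside a lncRNA span, so a peak there need not belong to the lncRNA's own transcription. The mark of the tissue was checked on 9 hypothalamic genes, among them Pomc, Agrp, Hcrt, Otp and Rax. All 9 had a peak in or within 1 kb of the span, with highest folds between 2.56 and 14.8. Peaks are common at protein-coding genes, 65.2% of whose promoters lay under one, so this count does not by itself identify the tissue. Of 3 pituitary hormone genes, Gh and Prl had none and Cga had a peak of fold 3.32, above the 2.67 of Avp and the 2.56 of Oxt. The cortical factors Emx1 and Fezf2 had highest folds of 2.02 and 4.51, and the globin gene Hbb-bs and the T cell gene Cd3e had no peak. Genes of neurons, oligodendrocytes, astrocytes, microglia and endothelium had peaks, as whole tissue would give, and peaks cannot be assigned to a cell type in these samples.

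The promoters below are RefSeq sequences of build GRCm38.p6, from 250 bases before to 50 after the annotated start, written 5′ to 3′ on the gene's strand with each CG in capitals. They set 5 promoters under strong peaks, picked after their values were seen, beside 2 known lncRNAs whose promoters lay under no peak. Snhg3 (chr4:132353637-132353936, minus strand) and Snhg15 (chr11:6528711-6529010, minus) are snoRNA hosts, and 1300002E11Rik (chr16:21794097-21794396, plus) is among the 20 lncRNA genes of highest fold. Gm26618 (chrX:6092507-6092806, minus) and Gm40720 (chr10:82177886-82178185, plus) held the 2 highest peaks of all lncRNA genes and carry few CG pairs. Malat1 (chr19:5802623-5802922, minus) and Xist (chrX:103483184-103483483, minus) are the promoters with no peak.
Snhg3: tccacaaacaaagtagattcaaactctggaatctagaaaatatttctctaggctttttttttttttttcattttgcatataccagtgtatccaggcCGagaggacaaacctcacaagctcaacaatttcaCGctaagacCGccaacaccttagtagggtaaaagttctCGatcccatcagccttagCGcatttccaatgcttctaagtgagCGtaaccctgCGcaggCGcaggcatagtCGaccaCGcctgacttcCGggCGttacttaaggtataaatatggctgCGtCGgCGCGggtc
Snhg15: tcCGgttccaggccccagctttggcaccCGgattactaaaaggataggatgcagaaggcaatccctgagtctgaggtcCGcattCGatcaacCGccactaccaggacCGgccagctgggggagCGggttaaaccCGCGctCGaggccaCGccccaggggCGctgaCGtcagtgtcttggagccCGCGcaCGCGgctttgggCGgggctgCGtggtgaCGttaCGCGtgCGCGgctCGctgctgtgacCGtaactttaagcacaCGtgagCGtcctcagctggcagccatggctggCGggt
1300002E11Rik: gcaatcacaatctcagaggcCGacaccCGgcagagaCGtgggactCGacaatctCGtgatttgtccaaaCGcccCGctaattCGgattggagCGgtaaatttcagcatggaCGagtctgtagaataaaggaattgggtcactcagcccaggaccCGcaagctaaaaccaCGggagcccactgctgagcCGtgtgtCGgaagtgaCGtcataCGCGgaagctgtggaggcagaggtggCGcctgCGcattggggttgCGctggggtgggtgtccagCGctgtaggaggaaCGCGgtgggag
Gm26618: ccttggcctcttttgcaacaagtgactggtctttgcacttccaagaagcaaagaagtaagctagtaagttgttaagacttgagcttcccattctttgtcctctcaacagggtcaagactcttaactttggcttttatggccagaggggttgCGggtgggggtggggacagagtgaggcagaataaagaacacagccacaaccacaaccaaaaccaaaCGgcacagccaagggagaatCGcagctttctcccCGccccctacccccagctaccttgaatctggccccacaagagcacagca
Gm40720: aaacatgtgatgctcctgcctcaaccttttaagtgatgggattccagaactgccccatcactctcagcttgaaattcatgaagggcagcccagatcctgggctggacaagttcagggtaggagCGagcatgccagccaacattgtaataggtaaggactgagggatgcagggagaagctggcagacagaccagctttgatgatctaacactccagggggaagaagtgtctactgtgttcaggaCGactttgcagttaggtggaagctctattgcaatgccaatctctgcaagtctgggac
Malat1: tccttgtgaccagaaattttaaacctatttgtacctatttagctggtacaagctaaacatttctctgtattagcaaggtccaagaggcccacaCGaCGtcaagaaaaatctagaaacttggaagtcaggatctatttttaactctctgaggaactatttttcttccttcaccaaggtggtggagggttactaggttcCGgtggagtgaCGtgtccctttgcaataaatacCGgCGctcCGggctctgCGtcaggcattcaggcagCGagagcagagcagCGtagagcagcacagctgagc
Xist: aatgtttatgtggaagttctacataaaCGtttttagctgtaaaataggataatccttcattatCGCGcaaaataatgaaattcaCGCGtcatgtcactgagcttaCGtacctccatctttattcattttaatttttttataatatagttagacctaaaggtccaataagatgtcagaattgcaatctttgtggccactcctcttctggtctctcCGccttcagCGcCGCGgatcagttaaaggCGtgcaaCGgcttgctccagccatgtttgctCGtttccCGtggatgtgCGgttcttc

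The CG count was 16 in Snhg3, 29 in Snhg15 and 23 in 1300002E11Rik, against 10 in Malat1 and 15 in Xist. Gm26618 had 4 and Gm40720 had 2. The peak over each promoter had a fold of 16.3 for Snhg3, 14.2 for Snhg15, 16.5 for 1300002E11Rik, 21.2 for Gm26618 and 19.9 for Gm40720. The fold is the authors' own value for a peak, its signal over the caller's background, and it is used here only to describe and rank peaks within the list. The promoter of Xist lay under no peak although its ratio of observed to expected CpG, 1.18, was above that of the 5 promoters with one, which ranged from 0.107 to 1.02. Other promoters with a fold above that of Snhg15 are not shown, and 4 of them, Gm41603, Gm29998, Gm32652 and Gm33628, had ratios of 0.696, 0.575, 0.312 and 0.328.

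MicroRNAs that lie in lncRNA genes with these peaks are the other set worth seeing, because several sit under the peaks themselves. Capitals mark the seed, bases 2 to 8, that pairs with target RNAs.
miR-9-5p: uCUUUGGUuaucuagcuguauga
miR-100-5p: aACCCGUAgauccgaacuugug
miR-125b-5p: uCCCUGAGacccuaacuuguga
miR-344-3p: uGAUCUAGccaaagccugacugu
miR-344c-3p: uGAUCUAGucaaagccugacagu
miR-129-5p: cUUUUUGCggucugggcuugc
The miR-344-3p and miR-344c-3p lines share the seed GAUCUAG. The miR-9-5p sequence, from a microRNA of neural progenitors and neurons, is made from 3 genes in the mouse, and each of them lay in a lncRNA gene with these peaks, as described with the hosts.

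Peaks in lncRNA genes were of ordinary strength. Their median fold was 3.28 (quartiles 2.67 and 4.39, range 1.52 to 21.2), against 3.25 in intergenic peaks, 3.11 in protein-coding spans and 3.18 over all peaks. The difference from intergenic peaks, 0.025 of fold, is small beside the quartiles and turned to -0.061 among peaks above the median −log10 q. Their median width was 567 bp, against 540 bp for intergenic peaks and 557 bp for all peaks. Peaks at or above a fold of 6.36, the upper decile of the list, are called strong below. There were 1038 strong peaks in lncRNA genes, 8.95% (95% Wilson interval 8.44% to 9.48%), against 8.05% of intergenic peaks (7.79% to 8.32%) and 10.0% of all peaks. With no margin around protein-coding spans the order was the other way, with 10.8% in lncRNA genes and 12.3% of intergenic peaks. A fold of 10 or more was reached by 208 of them, 1.79%, against 3.67% of all peaks. The strongest class of peaks was thus rarer in lncRNA genes than in the list as a whole, where 48.0% of peaks within 1 kb of a protein-coding span were strong. At the margin of the rule, the 26 peaks just inside it, 1000 to 1100 bp from a protein-coding span, had a median fold of 3.22, and the 20 just outside, at 900 to 1000 bp, had 3.47.

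Peaks were denser on lncRNA ground than on intergenic ground. The lncRNA spans outside protein-coding genes cover 173.6 Mb and held 66.8 summits per Mb, against 28.4 per Mb over 1425 Mb of intergenic ground and 121.6 per Mb in protein-coding spans. Density was higher in lncRNA than in intergenic ground on 20 of 21 chromosomes, the exception being chromosome Y, with 0 peaks in lncRNA genes and 4 intergenic ones. The autosomes ranged from 54.8 to 81.9 summits per Mb of lncRNA ground. The X chromosome had 34.8 per Mb, against 6.07 per Mb of its intergenic ground. Fold did not follow the same pattern, its median being higher in lncRNA genes on 11 of the 20 chromosomes with such peaks, equal on 1 and lower on 8. Assembly gaps and sequence to which reads cannot be mapped were not removed from the ground, and their part in the densities was not tested.

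**Figure D1:**
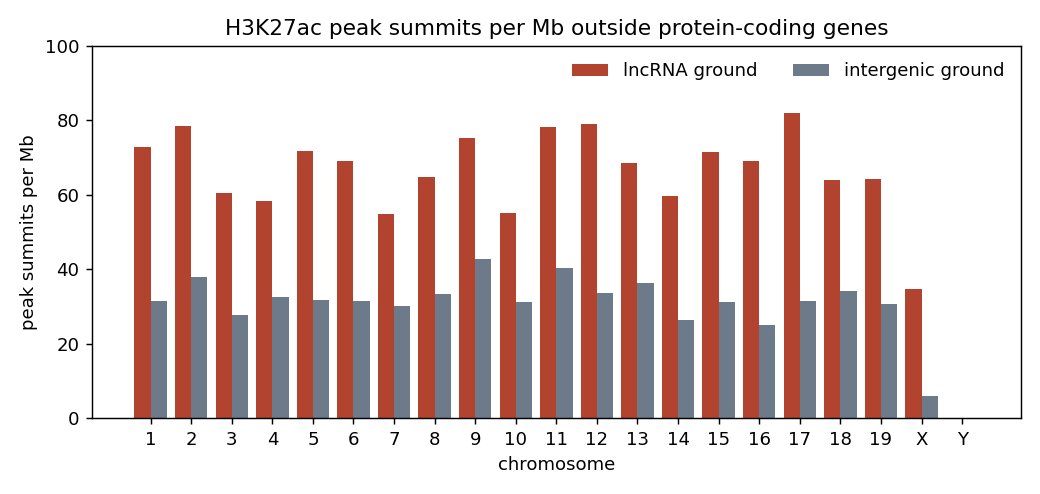
Peak summits per Mb (y axis) on each chromosome (x axis), in lncRNA spans (red) and in intergenic ground (grey), both more than 1 kb outside protein-coding spans. The red bar is the taller on every chromosome but Y, and X is the lowest of the others in both.

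The excess held at every distance from protein-coding genes, and as a ratio, with all chromosomes pooled, it grew with distance. The pooled intergenic ground includes 115.3 Mb of X and 87.1 Mb of Y, where peaks were sparse. The distance bins were not made for the autosomes alone, so the part of X and Y in this rise was not tested. The density on lncRNA ground itself was lowest in the farthest bin. At 1 to 5 kb from a protein-coding span there were 71.0 summits per Mb in lncRNA genes and 51.3 in intergenic ground, a ratio of 1.38. At 10 to 25 kb the values were 87.4 and 45.6 per Mb, a ratio of 1.92, and beyond 250 kb they were 30.9 and 7.79 per Mb, a ratio of 3.97. Peaks in lncRNA genes lay farther from protein-coding spans, at a median of 47079 bp, against 32327 bp for intergenic peaks.

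Of the 12727 lncRNA genes in the table, 9694 had some of their span more than 1 kb from protein-coding genes, and 4323 of these, 44.6%, held a peak there. Strong peaks were found in 949 genes, 9.79%. A single peak was held by 1976 genes, while 170 genes with at least 10 peaks held 24.5% of all these peaks. The share with a peak rose with gene length and the density fell with it. A peak was found in 20.2% of genes under 2 kb, 36.7% of those of 2 to 10 kb, 53.7% of those of 10 to 50 kb and 70.0% of those over 50 kb, while peaks per 100 kb were 18.6, 10.9, 7.37 and 5.03 in the same order. Genes with a predicted name starting with Gm held a peak in 44.7% of cases and named genes in 45.9%, with 33.0% for genes known only by a LOC number. Spans overlap, and 568 peaks lay in 2 lncRNA spans and 4 in 3, so a peak can count for more than 1 gene below.

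Peaks near the ends of lncRNA spans, and those near annotated starts, stood out within the spans. Of the peaks, 2337 or 20.1% had a summit within 1 kb of a span end, and their median fold was 3.66, with 17.3% strong. The 9267 others, in the bodies, had a median fold of 3.22 and 6.83% strong. A start of the gene holding the summit was known for 9076 peaks, 78.2%, with none for the 479 peaks on chromosome 18, and distances below are for these peaks. Within 250 bp of a start the median fold was 4.22 (quartiles 3.16 and 6.52), the median width 799.5 bp and the strong share 26.2%. At 250 to 500 bp the median fold was 3.65, at 500 to 1000 bp 3.40, and at 1 to 2.5 kb 3.18, with 6.82% strong. Farther into the genes it stayed between 3.18 and 3.26. Of the 800 strong peaks with a known start, 256 or 32% lay within 1 kb of it.

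**Figure D2:**
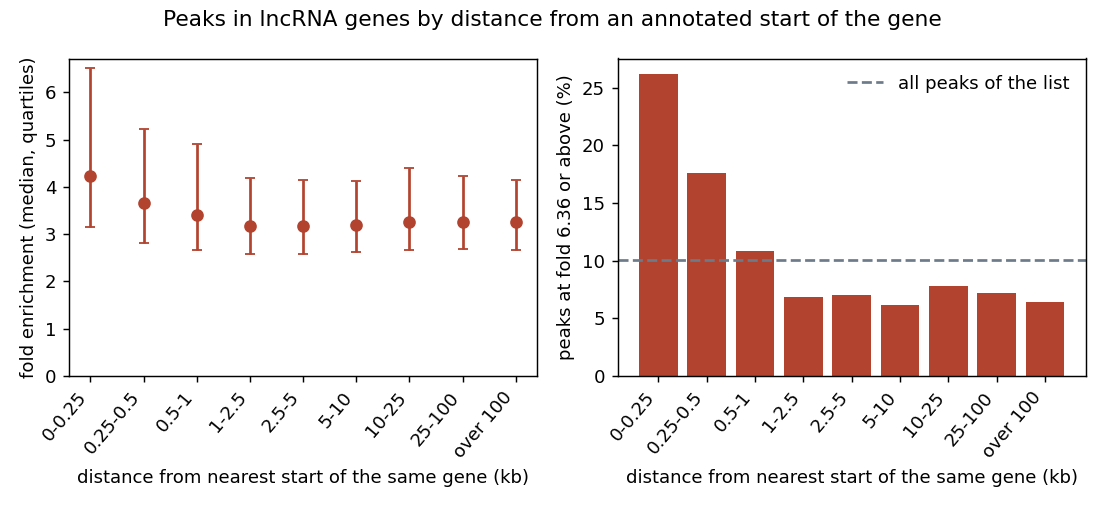
Peaks in lncRNA genes by distance of the summit from the nearest annotated start of the gene that holds it (x axis, kb). Left, median fold with its quartiles; right, percent of peaks that were strong, with the share over all peaks as a dashed line. Both fall over the first kb, and the strong share is below the dashed line in every bin from 1 kb on.

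Promoter sequences were given for 7297 starts of lncRNA genes more than 1 kb outside protein-coding genes. A peak lay over 1612 of them, 22.1%, against 53.6% of all promoters in the table and 65.2% of protein-coding ones. A strong peak lay over 409, 5.61%, against 34.5% of all promoters. For 533 of the 1612 the summit of the peak fell outside the lncRNA span or within the margin, so these peaks do not count among the 11604. CpG content went with the peak. The median ratio of observed to expected CpG was 0.440 under strong peaks, 0.248 under weaker peaks and 0.191 where there was no peak. Among protein-coding promoters with a peak it was 0.749.

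The relation to CpG was shallower in lncRNA genes. In promoters with a CpG ratio under 0.2, a peak lay over 14.9% of lncRNA promoters and 15.4% of protein-coding ones. At 0.2 to 0.4 the shares were 24.1% and 39.6%, at 0.4 to 0.6 they were 31.8% and 74.2%, and above 0.6 they were 49.0% and 95.1%. Both classes were thus alike where CpG was scarce and far apart where it was rich. Of 7 motifs searched on both strands, the GC box GGGCGG was in 37.7% of lncRNA promoters under strong peaks, 13.9% under weaker ones, 6.21% with no peak and 35.7% of all promoters. The E box CACGTG was in 12.7%, 5.74% and 5.21% in the same order and in 7.15% of all promoters. The motif of NRF1, with 1 base left free, was in 4.16%, 0.17% and 0.28%, and in 4.60% of all promoters. TATAAA was most frequent where there was no peak, in 12.7% under strong peaks, 10.1% under weaker ones and 19.7% with no peak, with 13.6% of all promoters. CCAAT was in 36.4%, 33.4% and 38.9%, and in 37.4% of all promoters. TGACGTCA, the cyclic AMP response element, was in 1.96% under strong peaks, 1.66% under weaker ones, 0.53% with no peak and 1.79% of all promoters. TGACTCA was in 4.40%, 8.56% and 6.79% in the same order and in 5.20% of all promoters. No motif of the 7 contains another, and a match is a description of letters only.

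**Figure D3:**
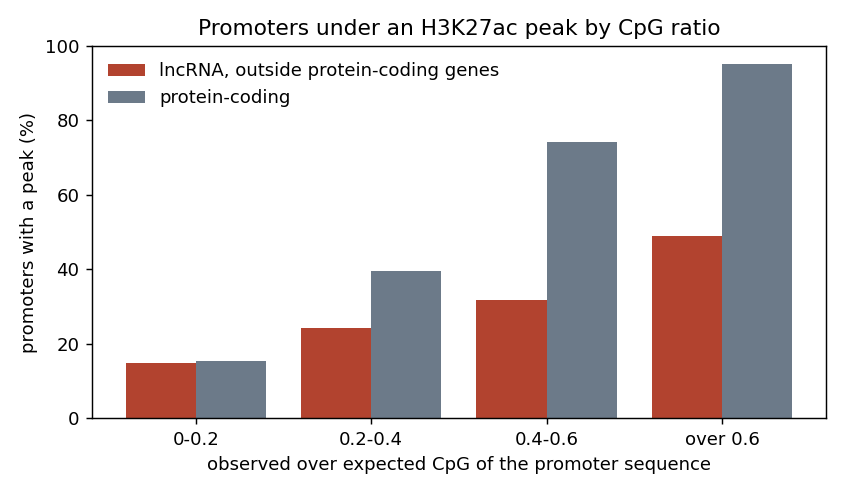
Percent of promoters under an H3K27ac peak (y axis) by the ratio of observed to expected CpG in the promoter sequence (x axis), for lncRNA genes outside protein-coding genes (red) and protein-coding genes (grey). The bars are level below a ratio of 0.2 and differ most above 0.4.

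The lncRNAs that act in the nucleus or lie on the X chromosome gave 10 genes with peaks of 12 in the table. All 12 had ground outside protein-coding genes. Their 105 peaks had a median fold of 3.35, beside 3.28 for all peaks in lncRNA genes. Of all lncRNA genes with such ground, 44.6% held a peak. That share, set beside each list here and below, is not matched for gene length, with which it rose. Firre, an X-linked gene for a repeat-rich nuclear RNA, carried peaks along most of its 72.2 kb. Its 22 peaks had a median fold of 4.76 (quartiles 3.98 and 5.38), and the midpoints of neighbouring peaks lay 1.75 to 5.99 kb apart. The highest of them was 8.42, and a separate peak of fold 14.3 covered its promoter with a summit outside the span. Ftx, a noncoding gene of the X inactivation centre, had 12 peaks in a different layout. Its highest folds were 15.2, near the 3′ end and 59987 bp from the start, and 14.4 at 1257 bp from the start, while the other 10 peaks ranged from 2.58 to 7.91. Jpx, an activator of Xist in the same centre, had a peak of 6.78 at 165 bp from its start and others of 3.09, 2.80 and 2.35. Xist, whose RNA coats the inactive X, had a single peak of fold 5.97 at 1245 bp into the gene and none over its promoter.

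Genes of this group on the autosomes split between a strong start and broad weak marking. Norad, whose RNA binds PUMILIO proteins, had 1 peak of fold 16.4. Oip5os1, also called Cyrano, whose RNA promotes decay of miR-7, had 1 peak of 14.5 at 122 bp from its start, and Dubr had 11.3 at its start and 2.67 inside. Pvt1, the neighbour of the oncogene Myc, had 53 peaks over 222.2 kb with a median fold of 2.94 and a highest of 7.88. Miat, a nuclear RNA of neurons, had folds of 4.66 near its start and 2.10 to 2.71 at 5 places in its body. Neat1, the scaffold of paraspeckles, had folds of 2.5, 2.37 and 2.27, all below the median of the list. Malat1, the abundant RNA of nuclear speckles, had no peak with its summit in the span, and the nearest one lay 276 bp away with a fold of 4.44. Tug1 had none inside the rule either, its peak of fold 14.2 having a summit outside the span.

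**Figure D4:**
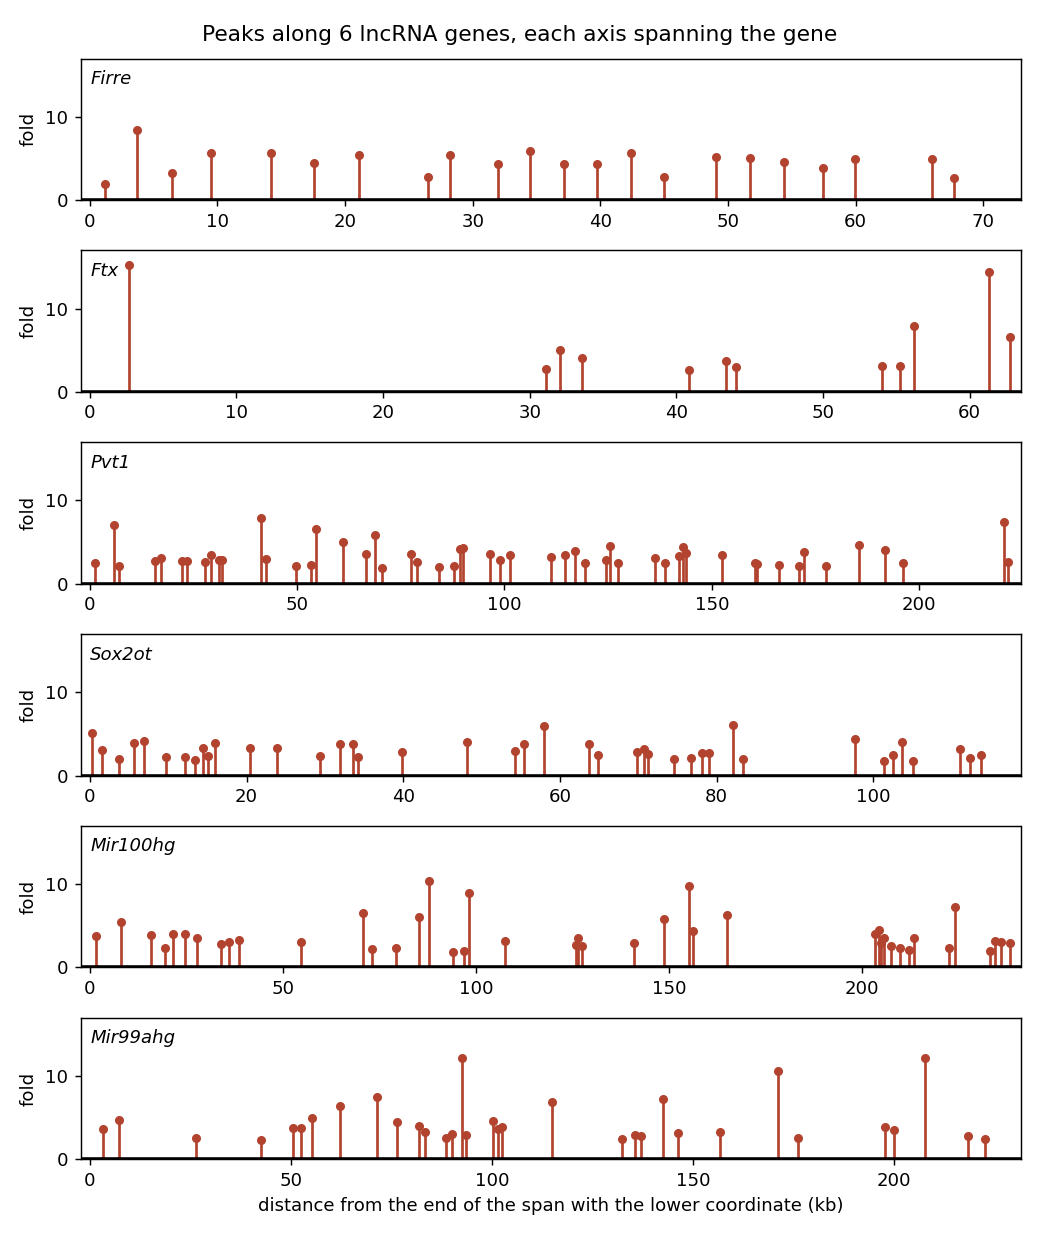
Peaks along 6 lncRNA genes, with fold (y axis) against distance in kb from the end of the span with the lower coordinate (x axis), each axis spanning the gene. Firre carries stems along nearly its whole length, with folds of 1.95 to 8.42, those of Ftx are high near both ends, and Pvt1, Sox2ot, Mir100hg and Mir99ahg carry many low stems with few high ones.

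Imprinted lncRNAs, expressed from the allele of 1 parent, numbered 8 with ground outside protein-coding genes. Of these, 5 held a peak, beside 44.6% of all lncRNA genes with such ground, and their 19 peaks had a median fold of 3.40. Of the 19 peaks 2 were strong, 10.5%, near the 10.0% of all peaks. Meg3, the maternally expressed RNA of the Dlk1 to Dio3 cluster, had 5 peaks between 2.35 and 3.40 in its 30.7 kb, and a peak of fold 4.11 over its first promoter had its summit outside the span. Rian, from the same cluster, had peaks of 3.46, 2.61 and 3.70, and Mirg had 1 of 2.56. Airn, the RNA that silences Igf2r in the mouse, had 1 peak of fold 9.10 inside the rule, placed 69233 bp from its start. A peak of 4.73 that the rule did not take covered its promoter, which lies in a protein-coding span. A230057D06Rik had 9 peaks in 221.7 kb with folds of 2.53 to 6.79. H19 and Ipw held no peak, the nearest to Ipw lying 323880 bp away. Kcnq1ot1 and Peg13 lie wholly within 1 kb of protein-coding spans and could hold none under the rule, although a peak of fold 10.7 covered the Kcnq1ot1 promoter, and the 7 summits in Snhg14 were all within the margin.

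Genes of the lncRNA class that lie beside transcription factors held many peaks of low fold. Of 28 in the table, 26 had ground outside protein-coding genes. Of these, 14 held 124 peaks, beside 44.6% of all lncRNA genes with such ground that held any. The median fold was 3.12, and 5 peaks or 4.03% were strong, against 10.0% of all peaks. In the 10 genes with a known start, the highest peak inside the rule lay more than 1 kb from it in every case. The rule bears on this, since several of these starts lie in or within 1 kb of a protein-coding span. Those of Six3os1, Pax6os1, Nkx2-2os, Lhx1os, A830082K12Rik and Tbx3os1 do, and a summit at them could not be taken. Inside the rule or not, a peak lay over a promoter in 6 of 18 listed genes with one given, against 53.6% of all promoters. Their folds were 2.06 to 5.09. Pantr2 and Sox1ot had higher peaks over their promoters, of 4.74 and 5.09, which the rule did not take. Sox2ot, whose span surrounds the neural stem cell factor Sox2, had 41 peaks in 117.6 kb, with a median fold of 2.78 and a highest of 6.07. All peaks of the list, inside the rule or not, covered 22.2% of its span. Nkx2-2os, beside the ventral neural factor Nkx2-2, had 15 peaks with a median of 3.39 and the highest at 9.16 and 8.46. The peak of 9.16 was nearest to another gene, Pax1, at 63.2 kb. Among peaks inside the rule, those nearest to Nkx2-2 itself reached at most 5.42. Rmst, an RNA that interacts with SOX2, had 13 peaks, of which 1 reached 8.15 and the rest 4.05 or less. Its nearest protein-coding gene, Nedd1, is no such factor and lies 522.3 kb away, and without Rmst 4 of 111 peaks, 3.60%, were strong. Pantr1, near Pou3f3, had 12 peaks with a median of 3.69, and Sox1ot had 11 with a median of 2.53. Pax6os1 had 7 peaks with a highest of 7.12, and Dlx6os1, the Evf2 gene of the Dlx5 and Dlx6 locus of inhibitory neurons, had 7 with a highest of 4.35. Six3os1 and Otx2os1, beside forebrain factors, had 2 each with highest folds of 5.20 and 5.06. None of Hotair, Hottip, Hoxa11os, Hoxb5os and Hoxb3os, from the Hox clusters that pattern the trunk and hindbrain, held a peak, and the nearest to Hotair lay 135.8 kb away. Hoxb5os and Hoxb3os had only 650 and 1701 bp of ground outside protein-coding genes. Dlx4os, Vax2os, Foxd2os, Gata6os, Evx1os and Tbx3os2 also held none inside the rule. Fendrr, whose highest peak is nearest to Foxf1, had 5 peaks with a highest of 4.88. Hotairm1 of the HoxA cluster had 2 summits in its span, both within the margin of protein-coding genes and so outside the rule.

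The neighbours of all the peaks were also counted. The nearest protein-coding gene was in a list of 105 developmental and neural transcription factors for 542 peaks in lncRNA genes, 4.67% (95% Wilson interval 4.30% to 5.07%), against 2.25% of intergenic peaks (2.11% to 2.40%). Peaks near 1 gene share their lncRNA, so this is a count of peaks and not of independent loci. Sox4 had 57 such peaks, Sox2 53, Pou3f3 38, Id2 34 and Id4 28, together 38.7% of the 542, and without the peaks nearest to these 5 genes the share was 2.91%, against 1.92% of intergenic peaks. With these 5 genes kept but without Gm and LOC genes, the share was 9.34% in the 2901 peaks left. The peaks of 2610307P16Rik, Sox2ot and Pantr1, near Sox4, Sox2 and Pou3f3, are among the 2901. No share without both was computed. The median fold of the 542 was 3.31. The most frequent neighbours overall were Zmiz1 with 69 peaks, Rasgef1b with 65, and Adgrb1 and Slc39a11 with 59 each.

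Hosts of microRNAs were led by a few long genes. Of 12 listed and in the table, all with ground outside protein-coding genes, 9 held 110 peaks of median fold 3.18. Among all lncRNA genes with such ground the share with a peak was 44.6%. A further 9 of the list were not in the table. Of the peaks 13 or 11.8% were strong, near the 10.0% of all peaks. Mir99ahg had 33 peaks in 229.1 kb, 7 of them strong, with the highest at 12.2 and 12.1, but no microRNA gene of the RefSeq table lay within its annotated span. Mir100hg had 42 peaks, 5 of them strong, with a highest of 10.4. Its peak of fold 9.83 covered the miR-100 gene shown above, and one of 3.51 covered the gene of miR-125b. Mir670hg had 9 peaks with a highest of 11.8, and the peak over its miR-129 gene had a fold of 3.95. Mir17hg and Mir155hg held none, and Mir22hg had a peak of fold 9.17 over its promoter with the summit outside its span. Mir205hg had 2 peaks, with folds of 2.46 and 2.19, and the weaker covered the gene of miR-205.

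The 3 genes of miR-9 all lay in marked hosts. In Gm3764 the Mir9-1 gene was under a peak of fold 5.90, and in C130071C03Rik, near Mef2c, the Mir9-2 gene was under one of 4.82. In Mir9-3hg the Mir9-3 gene lay 77 bp from a peak of 3.34. C130071C03Rik had 7 peaks with folds of 2.17 to 6.10, and Mir9-3hg had 11 with a highest of 4.26. Peaks of 6.49 and 4.76 over their first promoters had summits outside the spans. All peaks of the list, inside the rule or not, covered 30.9% of the 19.9 kb of C130071C03Rik. In A230057D06Rik, peaks of 6.79, 4.91, 4.70 and 5.78 covered the genes of miR-344, miR-344c, miR-344b and miR-344d. Among the microRNA genes of the RefSeq table, 82 lay in 49 lncRNA genes with peaks, and 22 of them overlapped a peak. The 82 were taken because their host held a peak. No share over all microRNA genes stands beside the 22, so it is a count only. For 60 the microRNA was on the known strand of the host. Hosts with no strand here, such as Rmst and Sox2ot, are not among the 60, so the rest are not all on the opposite strand. Mir124-2hg had 4 peaks with a highest fold of 4.46 and Mir124a-1hg 1 peak of 2.87, and neither has a microRNA gene matched here.

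Hosts of snoRNAs with peaks were short, with a median length of 2.71 kb, and were marked mostly at the start. Of 23, 20 had ground outside protein-coding genes. Of these, 10 held 15 peaks, beside 44.6% of all lncRNA genes with such ground that held any. Of the peaks, 7 or 46.7% were strong, against 10.0% of all peaks. In 7 of 9 genes with a known start the highest peak inside the rule lay within 1 kb of it. Snhg3 had a fold of 16.3 at 94 bp, Snhg15 14.2 at 20 bp, Snhg17 12.8 at 67 bp, Snhg12 10.8 at 82 bp, Snhg11 9.22 at 12 bp and Snhg7 7.71 at 70 bp. Epb41l4aos had 1 peak of 12.1. Snhg5 and Snhg10 had weak peaks in the span, of 2.36 and 2.25. A promoter sequence was available for 20 of the hosts, and 18 of them lay under a strong peak with folds of 6.47 to 16.3, against 34.5% of all promoters. For 11 of the 20 the promoter was more than 1 kb outside protein-coding spans, and all 11 lay under a strong peak, with folds of 7.71 to 16.3. The other 9 promoters were in or within 1 kb of such a span, where the protein-coding gene's own peak cannot be told apart, and 7 of them lay under a strong peak. Several of these peaks, such as those of Dancr at 14.7 and Snhg1 at 13.8, had summits outside the rule and are missing from the count of 15. Snhg14 and Rian, which are imprinted, were the 2 hosts with no peak over a promoter.

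**Figure D5:**
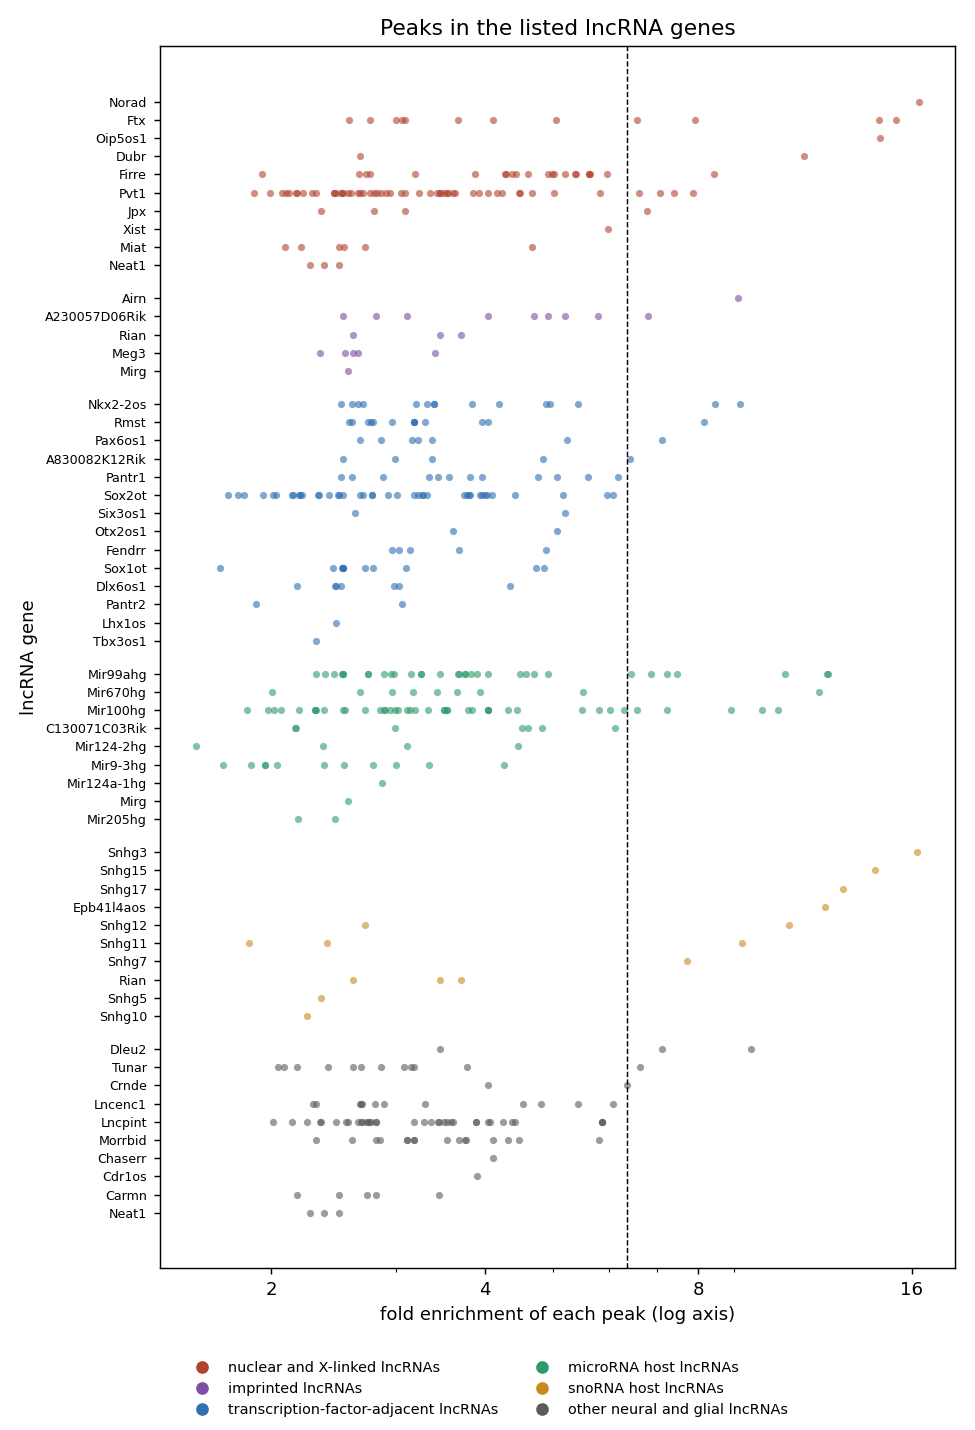
Fold of each peak (x axis, log scale) in the listed lncRNA genes (rows), coloured by list, with the strong threshold of 6.36 as a dashed line. The snoRNA hosts have few peaks and most of their highest lie right of the line, while the list of genes beside transcription factors has many points and 5 right of it.

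Other lncRNAs of neurons and glia gave 15 genes in the table, of which 12 had ground outside protein-coding genes. Of these, 10 held a peak, beside 44.6% of all lncRNA genes with such ground. Their 91 peaks had a median fold of 3.15. Of the peaks 4 or 4.40% were strong, against 10.0% of all peaks, and the 3 peaks of Neat1 are counted here and above. Dleu2, the host of the miR-15a and miR-16 genes, had peaks of 9.51, 7.11 and 3.47. Tunar, a neural lncRNA, had 12 peaks with the highest of 6.62 at 10 bp from its start. Lncpint had 36 peaks in 124.9 kb with a highest of 5.86, and Morrbid, beside the cell death gene Bcl2l11, had 16 with a highest of 5.80. Chaserr, upstream of the chromatin remodeller gene Chd2, had 1 of 4.12 inside the rule, with a peak of 13.97 over its promoter whose summit was outside it. Crnde likewise had a peak of 10.8 over its promoter, above its 2 peaks inside the rule, of 6.36 and 4.05. Cdr1os, the source of a circular RNA of neurons, had 1 of 3.9. Carmn, a lncRNA of smooth muscle, had 5 peaks between 2.17 and 3.45.

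Among all lncRNA genes, those with the highest folds were mostly unnamed and had few peaks. The highest peak was in Gm26618 on chromosome X at 21.2, followed by Gm40720 at 19.9, Gm12059 at 19.7, Gm38944 at 19.2 and Gm41603 at 19.1. The 20 genes of highest fold ranged down to 16.3, 15 of them held a single peak, and in 10 of 14 with a known start that peak was within 1 kb of it. Norad and Snhg3 are among these 20, and Gm14170 shares its peak with Norad.

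The genes with the most peaks were other genes. A930011G23Rik, near Rasgef1b, had 89 peaks in 431.8 kb, with a median fold of 3.03 and 7 strong. It was followed by 2610307P16Rik, near Sox4, with 64, 2610035D17Rik, near Slc39a11, with 58, Pvt1 with 53 and Zmiz1os1, next to Zmiz1, with 44. The 15 genes with the most peaks were 115.8 to 431.8 kb long and had median folds between 2.40 and 3.68. Coverage was highest, among genes of at least 5 kb, in Gm20083 with 51.3% of its span under peaks. It was 50.5% in Gm33531, 49.9% in Gm52538, 46.8% in Gm4792 and 46.7% in Gm52261. The protein-coding genes nearest to their highest peaks were, in the same order, Rgma, Rapgef3, Spo11, Tmcc3 and Olig2. The widest peaks were 3572 bp in Chn1os3, 3438 bp in Gm10863, and 3332 bp in Fzd10os. Their folds were 3.59, 4.22 and 4.73, all under the strong threshold, so the widest peaks were not among the highest.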

How the data were processed

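H3K27ac was profiled by bulk CUT&Tag in 3 hypothalamus samples, grouped by title. The submitters' processing notes name BWA 0.7.17, MACS2 with no version, cutadapt 4.5, STAR 2.7.10a, UMI-tools 1.1.4 and build mm10. Not given in the sources used here: caller settings, background, and how replicates were combined. Each line deposited has a score, a fold ratio over background, a −log10 p and a −log10 q per peak, all values made by the authors, and the −log10 p was not used. Sequencing depth is unknown, so absence of a peak is absence from this list. Peaks were assigned by summit with Python 3.11.15, numpy 2.4.6, pandas 2.3.3 and scipy 1.17.1 to RefSeq gene spans of GRCm38.p6, the assembly of mm10, with 49943 genes. Distances to starts and sequences came from the RefSeq promoter table, and genes with no entry there, chromosome 18 included, were left out of them. Wilson intervals cover counting error only, and neighbouring peaks are not independent. No test was run, since a single list allows none between samples. The members, the 6 lists (24 of their entries were not in the table) and the transcription factor list were chosen with earlier results of these data known. Genes named are those of the lists, the 20 of highest fold, the 15 with most peaks, the 10 with most coverage among those of at least 5 kb, and the 10 widest peaks, and not all are named. Near-identical copies and overlapping genes cannot be told apart, and strand is not part of a peak.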

Additional observations from a re-analysis of the deposited data

How the results depend on the processing

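No paired analysis was possible because the 3 replicates share a single list of peaks. Leaving out each replicate was not run for the same reason. The lead in median fold over intergenic peaks, 0.025, turned to -0.018 with a margin of 10 kb, -0.061 for peaks over the median −log10 q and -0.044 at a −log10 q of at least 10. The lead in width, 27 bp, was 13 bp with no margin. The number of peaks was 5898 above the median −log10 q, 7283 at a −log10 q of at least 10 and 2901 without Gm and LOC genes, which left 820 genes. In these 3 settings the strong share was 17.6%, 14.3% and 9.58%, and the share at span ends 24.3%, 22.7% and 14.3%. With no margin these shares were 10.8% and 22.0%, and with the upper quartile of fold as strong the first was 27.1%. The share at span ends was 18.5% with a margin of 10 kb, 11.8% for a window of 500 bp and 36.8% for 2.5 kb. The share near transcription factors was 9.34% without Gm and LOC genes, with the peaks near Sox4, Sox2, Pou3f3, Id2 and Id4 kept. The 3 settings chosen after seeing the data moved the ratio of densities, 2.35, to 2.09 on the autosomes, 1.92 within 100 kb of protein-coding spans and 2.58 for peaks over the median −log10 q. The cause was not tested. Depth is unknown, so which weak peaks were missed cannot be said.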
